A study of Mus musculus with 8 samples.

Results

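The 10 genes described here encode receptors known from natural killer cells: Klrb1c, Klrc1, Klrc2, Klrd1, Klrg1, Klrk1, Ncr1, Cd244, Cd160 and Cd96. They were chosen by name and by what their products do, and they are 10 of the 750 immune genes on the mouse panel that was measured. Wild-type male C57BL/6 mice, 7 to 8 weeks old, carried peritoneal tumors of MC38, a mouse colon adenocarcinoma line implanted into the peritoneum. From day 7 the animals received intraperitoneal PBS (4 samples) or the STING agonist RR-CDA, a cyclic dinucleotide that activates the innate DNA-sensing adaptor STING (4 samples). The agonist was given at 15 µg in 2 injections, and tumors were profiled 10 days after the first injection. RNA came from whole tumor tissue and was counted by nCounter hybridization, in which barcoded probes are counted without amplification. The comparison asks how the tumor's receptor transcripts differed between STING agonist-treated and PBS-treated mice.

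Natural killer cells weigh signals from activating receptors against signals from inhibitory receptors. Activating receptors bind stress-induced or adhesion ligands on target cells, and many inhibitory receptors bind MHC class I-related molecules. In mice most of the lectin-like receptors among them lie together in the natural killer gene complex. Many of these receptors are also carried by T cells, above all by CD8+ T cells that have met antigen, so a transcript in whole tumor RNA has no single cellular source.

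The sum of counts over the immune genes ranged from 241506 to 414698 per sample. Over genes of moderate count, PBS samples 2 and 4 differed by less than the sampling noise of their counts: the chi-square per degree of freedom was 0.404 over 358 genes, against 5.89 to 12.6 in the 11 other pairs within a group. Over 61 genes with a mean of at least 1000 counts it was 6.39, more than sampling noise, against 45.1 to 364 in the other pairs. They were counted as 1 sample, PBS 2+4, so that each comparison sets 3 PBS samples against 4 STING agonist samples. All values below are counts divided by a sample factor from 20 housekeeping genes, called normalized counts. Probes differ in efficiency, so levels were compared between samples of one gene and not between genes.

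The labels were checked against marker genes. Among defining natural killer cell markers, Ncr1 averaged 16.1 raw counts and lay above its own sample's limit from the 8 negative probes (their mean plus 2 SD) in all 8 samples. Klrb1c averaged 9.57 raw counts and lay at or under that limit in 4 of 8 samples. Eomes averaged 39 raw counts, and the integrin Itga2 averaged 8, under the limit of 8.62 averaged over samples. The summed normalized level of these 4 genes was 73.3, 68.7 and 75.4 in the PBS samples and 68.8, 57.1, 75.8 and 83.4 in the STING agonist samples, so the groups overlapped. The tissue is labelled colon, although the tumors were peritoneal implants. Epithelial markers were low: Epcam averaged 10.1 raw counts, Muc1 15.6, Ceacam1 15.4 and Cdh1 24.1, and 5 further listed epithelial genes were not analysed here.

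Of the 10 receptor probes, 1 was near the negative probes: Cd96, with a mean of 6.14 raw counts, at or under its sample's limit in 7 of 8 samples. Klrc2 (9.29 raw counts), Klrb1c and Cd160 (9.86) lay just above the averaged limit, and each was at or under its own sample's limit in 3 or 4 of 8 samples. The remaining 6 genes, Klrc1, Klrd1, Klrk1, Klrg1, Ncr1 and Cd244, were above it in every sample.

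**Figure D1:**
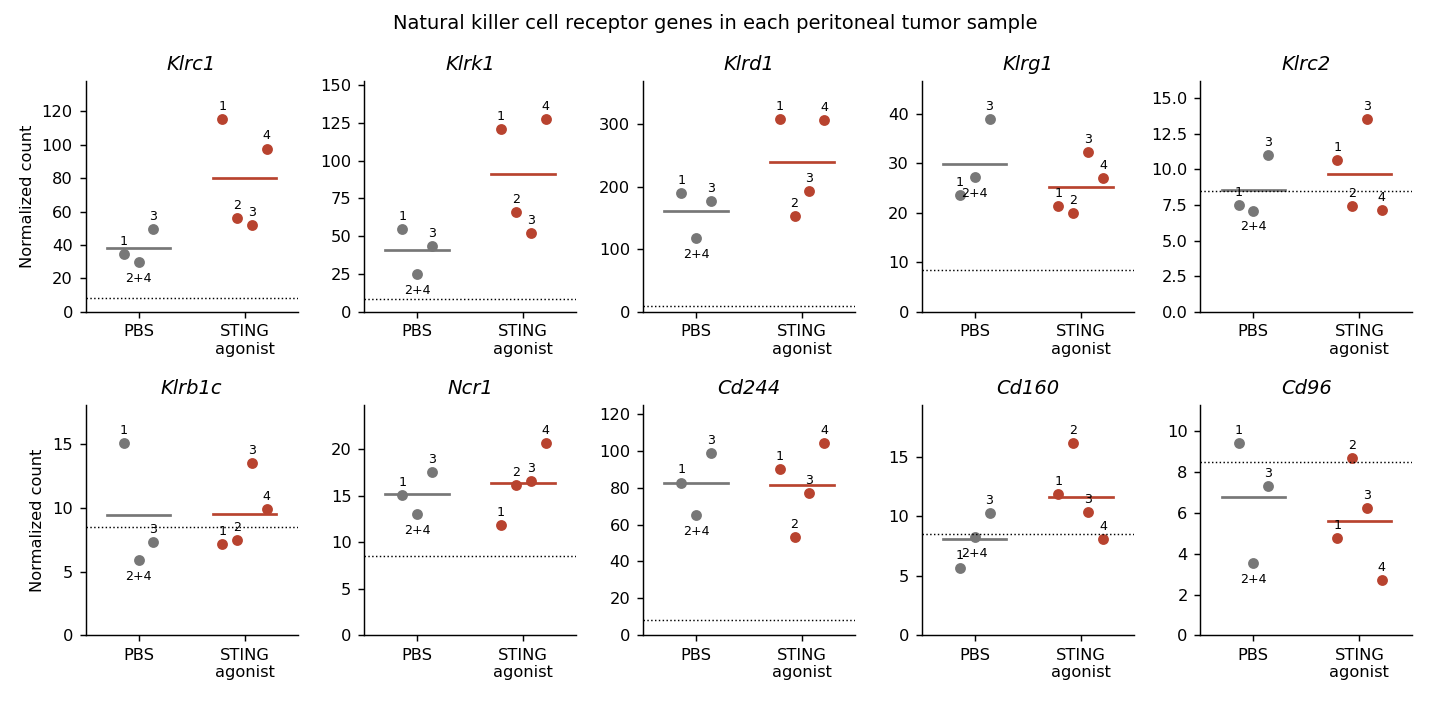
Normalized counts of the 10 receptor genes in each sample, in PBS-treated (grey) and STING agonist-treated (red) tumors. Points are numbered by sample, horizontal bars are group means and the dotted line is the limit from the negative probes. Klrc1 has all 4 treated samples above all 3 PBS samples.

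Klrc1, which encodes the inhibitory receptor NKG2A, was the only one of the 10 genes whose groups did not overlap. Its normalized counts were 34.8, 29.6 and 49.8 in PBS 1, PBS 2+4 and PBS 3. In STING agonist samples 1 to 4 they were 115.1, 55.9, 51.9 and 97.7. Samples 1 and 4 stood well above the rest, while samples 2 and 3 were only slightly above the highest PBS sample. The group means were 38.1 ± 10.5 (SD, n = 3) and 80.2 ± 31.2 (SD, n = 4), a 2.11-fold difference. The log2 fold change was 1.06 with an SE of 0.37, and edgeR's quasi-likelihood test gave an adjusted p of 0.204 over all 750 genes. That 1 gene among 10 lacked overlap is to be read against the panel, where 16.8% of genes were higher without overlap and 1.47% lower. The separation depended on the scale: with the total count as the scale the Klrc1 groups overlapped. With TMM, 1 of the 10 genes was still higher without overlap. The panel then had 70 genes higher and 48 lower without overlap, in place of 126 and 11.

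Klrk1 encodes NKG2D, an activating receptor for stress-induced ligands that also serves as a costimulatory receptor on CD8+ T cells. It measured 54.5, 24.9 and 43.2 normalized counts in the PBS samples. The STING agonist samples gave 121.1, 65.8, 51.9 and 127.3. Treated samples 1 and 4 were again the highest, and sample 3 fell below PBS 1, so 3 of 4 treated samples lay above all PBS samples. The means were 40.9 ± 14.96 (SD, n = 3) and 91.5 ± 38.2 (SD, n = 4), 2.24-fold apart, with a log2 fold change of 1.16 (SE 0.41, edgeR adjusted p = 0.211).

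Klrc1 and Klrk1 are close neighbours: in the RefSeq annotation the order of genes is Klrd1, Klrk1, Klrc3, Klrc2, Klrc1. Because these 2 genes had the largest differences among the 10 and were both highest in treated samples 1 and 4, their RefSeq promoter windows (build GRCm38.p6, 250 bases before to 50 bases after the start) are shown. Capitals mark the match to the RUNX core motif TGTGGT, searched on both strands. The Klrk1 window is chr6:129623815-129624114 on the minus strand and the Klrc1 window is chr6:129678924-129679223 on the minus strand, each written 5′ to 3′ along the gene.
Klrk1: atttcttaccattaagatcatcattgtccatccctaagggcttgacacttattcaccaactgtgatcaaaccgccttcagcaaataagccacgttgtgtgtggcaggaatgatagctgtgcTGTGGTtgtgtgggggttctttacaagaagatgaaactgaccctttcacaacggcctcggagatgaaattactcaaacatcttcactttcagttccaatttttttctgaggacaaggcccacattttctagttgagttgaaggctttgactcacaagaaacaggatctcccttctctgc
Klrc1: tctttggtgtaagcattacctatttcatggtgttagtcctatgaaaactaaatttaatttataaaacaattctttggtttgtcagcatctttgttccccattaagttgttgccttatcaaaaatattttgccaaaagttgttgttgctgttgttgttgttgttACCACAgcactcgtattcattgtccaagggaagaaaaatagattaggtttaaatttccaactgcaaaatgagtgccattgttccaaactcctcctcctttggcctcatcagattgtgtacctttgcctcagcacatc
RUNX factors are transcription factors active in natural killer and CD8+ T cells. The motif was found in 16.8% of the 32841 windows in the table and in 10 of the 11 windows of the receptor genes, which belong to 7 of 8 genes with a window: Klrc1, Klrk1, Klrc2, Klrb1c, Ncr1, Cd160 and Cd96, but not Cd244. Some of these windows overlap or belong to paralogs, so they are not independent. The interferon-linked motifs TTCNNNGAA (GAS, in 8.3% of all windows) and ISRE (GAAA, any 2 bases, then GAAA again, 3.44%) were absent from the Klrc1 and Klrk1 windows, as was the T-box core GTGTGA (14.5%). TTCNNNGAA was present in windows of Cd160 and Cd96, GTGTGA in windows of Cd160 and Ncr1, and the ISRE motif in 0 of the 11 windows. A match is a run of letters and not a measured binding site, and RUNX factors bind further forms of the motif that were not searched.

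Klrd1 encodes CD94, the partner chain with which NKG2A and NKG2C reach the cell surface. Its counts were 189.9, 118.4 and 176.4 in the PBS samples and 307.4, 152.8, 193.1 and 306.6 in the STING agonist samples. Samples 1 and 4 led here too, and sample 2 lay within the PBS range. The means were 1.49-fold apart, 161.6 ± 38.0 (SD, n = 3) against 240.0 ± 79.1 (SD, n = 4). With a log2 fold change of 0.57 (SE 0.29) the edgeR adjusted p was 0.332. Klrc2, which encodes the activating NKG2C, measured 7.11 to 10.98 in PBS samples and 7.17 to 13.5 in STING agonist samples, just above the limit from the negative probes on average. Klrc2 and Klrc3 are near-identical paralogs, and the probe sequences were not used here, so the Klrc2 count may include Klrc3.

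The other lectin-like receptors had overlapping groups. Klrg1 encodes an inhibitory receptor of mature natural killer cells and effector T cells. Its counts were 23.5, 27.2 and 38.8 in the PBS samples and 21.4, 19.9, 32.2 and 26.9 in the STING agonist samples. The treated mean was 0.840 times the PBS mean, and 2 of 4 treated samples lay under all PBS samples (log2 fold change -0.25, SE 0.33, edgeR adjusted p = 0.748). Klrb1c encodes NK1.1, the antigen by which natural killer cells of C57BL/6 mice are usually recognised. It ranged from 5.92 to 15.04 in PBS samples and from 7.12 to 13.5 in STING agonist samples, with a log2 fold change of 0.014 (SE 0.43).

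Among the immunoglobulin-like and SLAM-family receptors, no gene had separate groups. Ncr1 encodes NKp46, an activating receptor largely restricted to natural killer cells and related innate lymphoid cells. Its normalized counts were 15.04, 13.03 and 17.6 in PBS samples and 11.9, 16.1, 16.6 and 20.6 in STING agonist samples. Treated samples lay on both sides of the PBS range, 1 above it and 1 below it, and the log2 fold change was 0.099 (SE 0.33, edgeR adjusted p = 0.913). Cd244 encodes 2B4, the receptor for CD48, and was read well above background. Its counts of 82.7, 65.1 and 98.8 in PBS samples and 90.2, 53.4, 76.8 and 104.0 in STING agonist samples covered nearly the same range (log2 fold change -0.021, SE 0.28, edgeR adjusted p = 0.987).

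Cd160 encodes a receptor for the TNF receptor family member HVEM. It measured 5.64 to 10.2 in PBS samples and 8.07 to 16.1 in STING agonist samples, with 3 of 4 treated samples above all PBS samples, from raw counts of 6 to 14. Its log2 fold change of 0.49 (SE 0.38, edgeR adjusted p = 0.514) was within the error at that depth. Cd96 encodes a receptor for the adhesion molecule CD155. With 2 to 10 raw counts per sample, no difference in Cd96 was detectable at this depth (log2 fold change -0.33, SE 0.49).

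Across the 10 genes, 2 passed an unadjusted p of 0.05 in edgeR as higher, Klrc1 and Klrk1, and 0 as lower. The panel background was 17.7% higher and 1.33% lower, so this count is near the background and is not a result about the receptor genes as a group. The median log2 fold change was 0.13 for the receptor genes and 0.21 for all 750 genes. At an adjusted p of 0.05, 0 of the 10 receptor genes and 0% of the panel passed in edgeR, and 0 passed in limma. DESeq2's Wald test called 52 panel genes and 0 of the 6 receptor genes to which it gave an adjusted p. In edgeR without STING agonist 3, 6 panel genes passed as higher and 1 as lower. Without PBS 3, 1 panel gene passed as higher, and 0 receptor genes passed in either fit. Scaling by TMM in place of housekeeping genes moved the median of all genes from 0.21 to -0.02 and the unadjusted split of the panel from 133 higher and 10 lower to 87 higher and 40 lower. The log2 fold changes of Klrc1 and Klrk1 were then 0.82 and 0.90, and those of Klrb1c, Klrc2 and Ncr1 changed sign.

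Whether Klrc1 and Klrk1 passed the unadjusted threshold varied with the samples used, as did the number of panel genes that passed in either direction, 143 with all samples. Without STING agonist 1, 0 of the 10 genes and 84 of the panel passed, and Klrc1 had a log2 fold change of 0.84 and Klrk1 of 0.99. With PBS 2 and 4 both left out, 0 and 107 passed, and the values were 0.92 and 0.91. Without STING agonist 4 only Klrc1 passed, beside 89 panel genes. Without PBS 1 only Klrk1 passed, beside 104, while Klrc1 kept a log2 fold change of 1.002 (SE 0.45). Without STING agonist 2, Klrd1 passed as the third gene, beside 145. STING agonist 4 also carried transcripts of liver: the summed level of 9 hepatocyte genes was 1518 normalized counts in it and 28.6 to 74.7 in the other samples, led by Ambp, and its part in the receptor values was not tested. Without that sample the log2 fold changes of Klrc1 and Klrk1 were 0.95 and 0.95.

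Markers of other leukocytes varied with Klrc1, Klrk1 and Klrd1. Ptprc, which encodes the pan-leukocyte antigen CD45, measured 110.0, 42.6 and 112.7 in the PBS samples and 261.1, 168.9, 142.3 and 271.7 in the STING agonist samples. It was higher in 4 of 4 treated samples (log2 fold change 1.24, SE 0.38, edgeR adjusted p = 0.181), and samples 1 and 4 were the highest, as for the 3 receptor genes. The 10 T cell genes, with Cd3d and Cd3g making up the largest parts, summed to 185.2, 133.8 and 216.0 in PBS samples and 433.2, 223.6, 235.7 and 387.3 in treated samples. Of them, Cd3e, Cd3g, Cd8a and Cd8b1 passed the unadjusted threshold as higher, where the panel background was 17.7%. Cd8b1, Cd3e and Cd8a lay at or under their sample's negative-probe limit in 3, 2 and 1 of 8 samples, all PBS samples. Their fold changes are therefore not exact. Another 4 of the 10, including Cd4, were near the negative probes. The list was not uniform: its median log2 fold change was 0.52, with 0.36 (SE 0.26) for Cd3d and -0.24 (SE 0.40) for Cd28. The 4 genes near the negative probes had 0.67 (Cd6), 0.038 (Cd27), -0.077 (Cd4) and -0.24 (Cd5). In whole tumor RNA, a change in the number of cells and a change in RNA per cell cannot be told apart, and the part of leukocyte content in the receptor values was not tested.

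To set the receptors beside these markers, the fit was repeated with the Ptprc count of each sample in place of the housekeeping factor. On that scale, all 10 genes had log2 fold changes below 0, with a median of -1.09 against -1.14 over 749 genes. Klrk1 had -0.19 (SE 0.38) and Klrc1 -0.33 (SE 0.40), the values closest to 0 among the 10. A change of scale shifts all genes by nearly the same amount, so this order carries over from the housekeeping scale. Cd244 had -1.39 (SE 0.40) and Klrg1 -1.57 (SE 0.50), and both had an edgeR adjusted p of 0.0419. These 2 of 10 compare with 34.6% of the panel called lower at that threshold. At the unadjusted threshold 5 of 10 were lower, against 56.1% of the panel, and 0 were higher, against 0.801%. Further, 4 of 10 were lower without overlap, against 42.6%. The counts past the adjusted threshold, 2 receptor genes and 259 panel genes, moved together when samples were left out. Without STING agonist 1, 2 or 4 they were 0 receptor genes and 0, 0 and 8 panel genes, and with PBS 2 and 4 both left out 0 and 3. They were 6 and 362 without STING agonist 3, 6 and 462 with all 8 tumors separate, and 3 and 396 without PBS 1. The Ptprc scale rests on 1 gene, whose lowest value was in PBS 2+4.

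The geometric mean of Cd3d, Cd3e and Cd3g was used as a further scale. Cd3e had 5 raw counts in PBS 2 and in PBS 4, under their negative-probe limits, so values of PBS 2+4 and fold changes on this scale are not exact. Klrk1 and Klrc1 had the highest values of the 10, an order that a change of scale leaves nearly unchanged. Klrk1 had a log2 fold change of 0.077 (SE 0.36), and Klrc1 per unit of CD3 was 1.24, 1.54 and 1.36 in PBS samples and 1.59, 1.40, 1.25 and 1.25 in STING agonist samples. On this scale the 2 groups covered much the same range, with a ratio of means of 0.997. Cd244 per unit of CD3 was 2.94, 3.38 and 2.70 in PBS samples and 1.25, 1.34, 1.85 and 1.33 in treated samples. Every treated sample lay below every PBS sample, with a log2 fold change of -1.06 (SE 0.34, edgeR adjusted p = 0.0581). Klrg1 (-1.21, SE 0.43, edgeR adjusted p = 0.0655), Ncr1 (-0.88, SE 0.45) and Klrd1 (-0.50, SE 0.32) also had all treated samples below all PBS samples. These 4 of 10 genes compare with 33.2% of the 747 genes tested on that scale, and 42.0% of them were lower at an unadjusted p of 0.05 and 1.34% higher, against 2 and 0 of the 10. At an adjusted p of 0.05, 5.22% were lower (39 genes), against 0 of the 10. Without STING agonist 3 these counts were 222 panel genes and 3 receptor genes, and with all 8 tumors separate 302 and 2. Without PBS 3 they were 102 and 0. Without PBS 1 or 2 they fell to 27 and 21 panel genes, and without STING agonist 1, 2 or 4 to 17, 19 and 21. With PBS 2 and 4 both left out they fell to 2. Receptor genes numbered 0 each time. The panel median was -0.79 and that of the receptor genes -0.82, so the medians were close on this scale too. Differences between one receptor gene and another were not tested.

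The values relative to CD3 depended on the chain, since on the housekeeping scale the log2 fold change was 0.36 for Cd3d, 1.18 for Cd3e and 1.51 for Cd3g. Each chain was therefore also used alone, as were Cd3d and Cd3g without Cd3e, choices made after the values were seen. Relative to Cd3d and Cd3g, which were above the negative-probe limit in every sample, Klrk1 had a log2 fold change of 0.15 (SE 0.35), Klrc1 0.070 (SE 0.34) and Cd244 -0.98 (SE 0.32, edgeR adjusted p = 0.0776), with a median of -0.71 over all genes. On that scale 4 of 10 receptor genes were lower without overlap, against 29.9% of 748 genes, and 0 with an adjusted p under 0.05, against 1.87%. Values relative to Cd3e alone are not exact, for its low counts. Klrc1 had a log2 fold change of 0.66 (SE 0.35) relative to Cd3d, -0.12 (SE 0.48) relative to Cd3e and -0.59 (SE 0.51) relative to Cd3g. For Klrk1 the values were 0.77 (SE 0.36), -0.041 (SE 0.47) and -0.53 (SE 0.51). Cd244 had -0.38 (SE 0.31), -1.20 (SE 0.45) and -1.64 (SE 0.50). It was below 0 with each chain, as were Klrb1c, Klrc2, Klrg1, Ncr1, Cd96 and the median of all genes. Relative to Cd3d, Cd3e and Cd3g, 0, 3 and 5 of the 10 receptor genes were lower without overlap, against 4.01%, 39.3% and 47.9% of the 749 genes tested. With an edgeR adjusted p under 0.05, 0, 2 and 6 were lower, against 0%, 16.7% and 59.8%. The median of all genes tested was -0.12, -0.92 and -1.37. Klrc1, Klrk1, Klrd1 and Cd160 lay above it with each chain, as they lay above the median on the housekeeping scale.

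**Figure D2:**
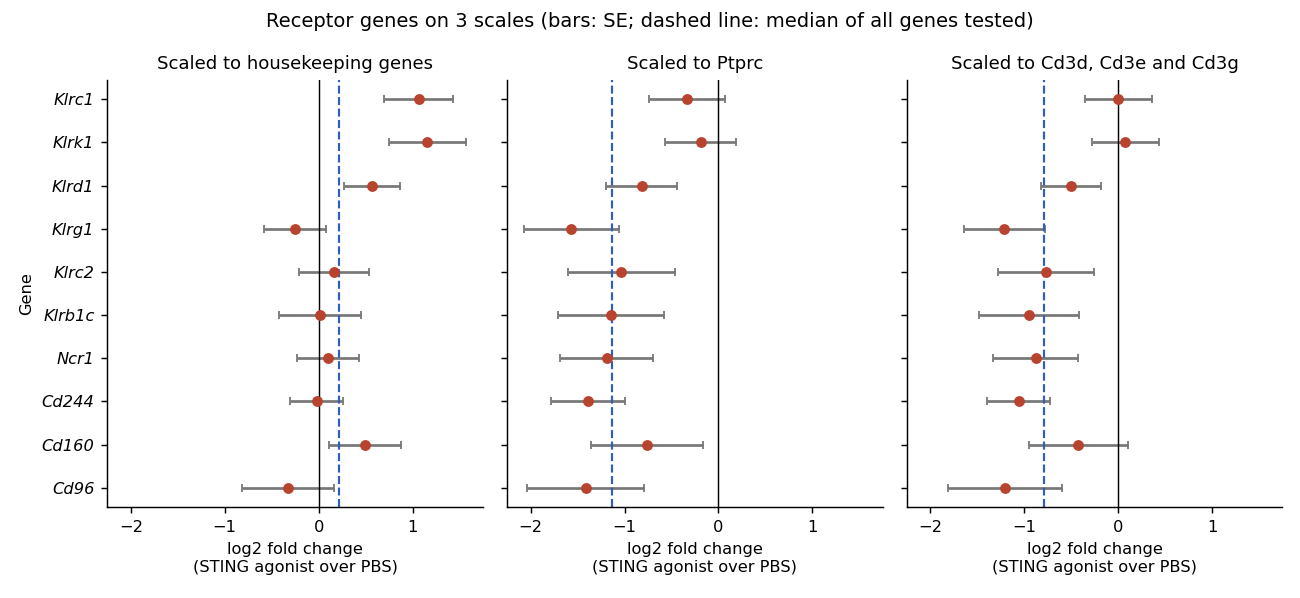
Log2 fold change (STING agonist over PBS) of each receptor gene, with the counts scaled to housekeeping genes, to Ptprc or to the CD3 chains. Bars are SE and the dashed line is the median of all genes tested, which was 0.21, -1.14 and -0.79. Klrc1, Klrk1, Klrd1 and Cd160 lie to the right of the dashed line on each scale, and a change of scale shifts all genes by nearly the same amount.

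The panel genes whose pattern was nearest to each receptor were found from the root mean square difference of centred log2 values over the 7 samples, among genes with a mean of at least 20 counts. For Klrk1 the nearest gene was Cd8a, a chain of the CD8 coreceptor, at 0.12, followed by Cd86 and Mefv, against a median of 0.68 over all genes compared. Cd8a measured 32.0, 13.03 and 22.7 in PBS samples and 84.3, 36.0, 28.0 and 69.9 in treated samples, high in samples 1 and 4 and lowest in PBS 2+4, as Klrk1 was. In PBS 2, Cd8a had 10 raw counts, under that sample's negative-probe limit. For Klrc1 the nearest were H2-T23 at 0.18, Cd36 and Itgal, with a median of 0.58 over all genes. For Klrd1 they were Abca1 (0.14), Abcg1 and Bcl6. Klrg1 was nearest to Il2ra (0.16), Pdgfc and Dock9. Cd244 was nearest to Il2rb, the shared beta chain of the IL-2 and IL-15 receptors, at 0.11, followed by Spn and Itgb3. Il2rb measured 205.9, 159.9 and 226.9 in PBS samples and 246.9, 116.8, 206.6 and 277.0 in treated samples, with the lowest value in STING agonist 2 and the highest in 4, as for Cd244.

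**Figure D3:**
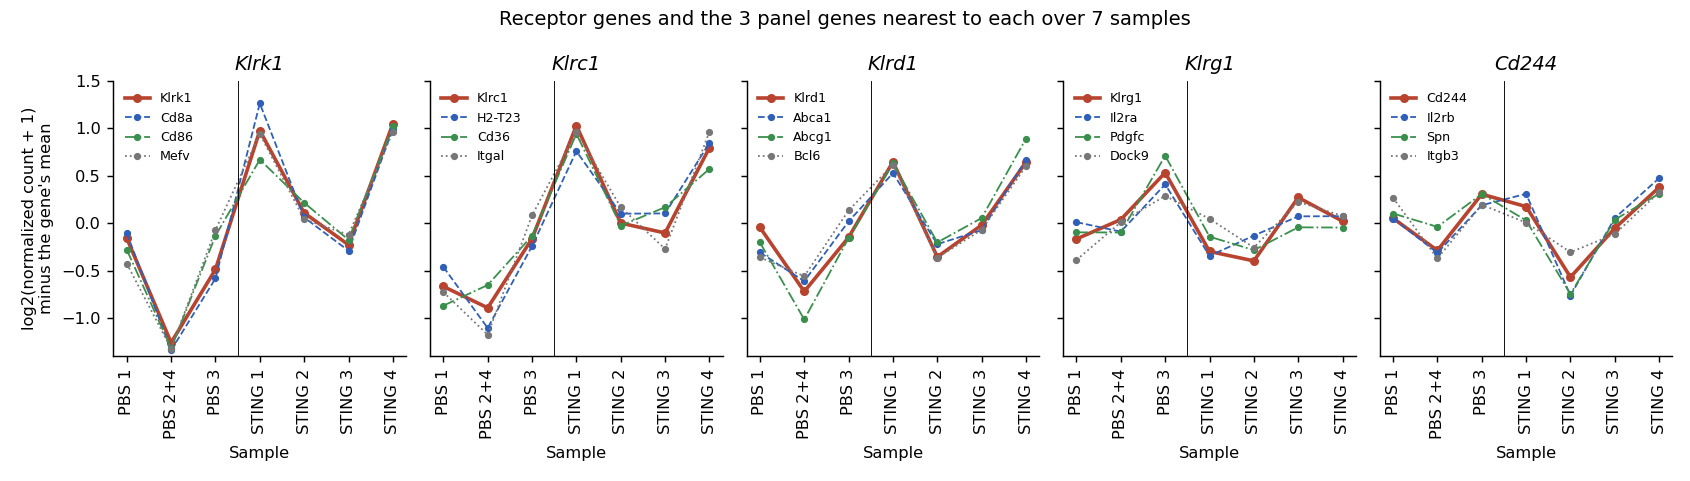
Patterns of the 5 receptor genes with a mean of at least 20 counts, each with its 3 nearest panel genes, as log2(normalized count + 1) minus the gene's mean over the 7 samples. The lines only guide the eye, since samples have no order. Klrk1 and Cd8a follow each other closely, at a root mean square difference of 0.12.

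Ligands of these receptors were described next, from a fixed list with 8 genes on the panel. H2-T23 encodes Qa-1, the nonclassical MHC class I molecule bound by the CD94 and NKG2A pair. Its counts were 415.5, 265.3 and 483.9 in PBS samples and 969.6, 613.6, 614.7 and 1030.2 in STING agonist samples. All 4 treated samples were above all PBS samples, with a 2.08-fold difference in means (log2 fold change 1.05, SE 0.28, edgeR adjusted p = 0.171). Tnfrsf14, which encodes HVEM, the ligand of CD160, was 87.4, 55.7 and 120.1 in PBS samples and 162.6, 149.1, 104.9 and 155.1 in treated samples. In 3 of 4 treated samples it was above all PBS samples (log2 fold change 0.70, SE 0.29, edgeR adjusted p = 0.241). H2-T23 and Tnfrsf14 were the 2 of 8 listed genes that passed the unadjusted threshold as higher, and 0 passed as lower. The panel background was 17.7% higher and 1.33% lower. The list's median log2 fold change was 0.21, the same to 2 decimals as that of the panel.

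Ligands of NKG2D did not pass the unadjusted threshold. Ulbp1, which encodes MULT1, had a log2 fold change of 0.083 (SE 0.22), with 93.6 to 147.9 normalized counts in PBS samples and 119.4 to 164.0 in treated samples. H60a was near the negative probes at 3.86 raw counts, with a log2 fold change of 0.78 (SE 0.61). Raet1, a family name on the panel for the RAE-1 ligands that is not among the 8 and was added after its values were seen, had a log2 fold change of 0.23 (SE 0.18). Cd48, the ligand of 2B4, had 0.30 (SE 0.27). Pvr, which encodes the CD96 ligand CD155, had 0.11 (SE 0.27), and Pvrl2, which is on the list but encodes nectin-2, a ligand of TIGIT and DNAM-1, had -0.028 (SE 0.19). Cdh1 encodes E-cadherin, the ligand of KLRG1, and measured 32.9, 20.1 and 35.1 in PBS samples and 16.6, 11.2, 22.8 and 21.5 in treated samples. Treated samples 1 and 2 were below all PBS samples, and the log2 fold change of -0.70 (SE 0.36, edgeR adjusted p = 0.332) did not pass.

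**Figure D4:**
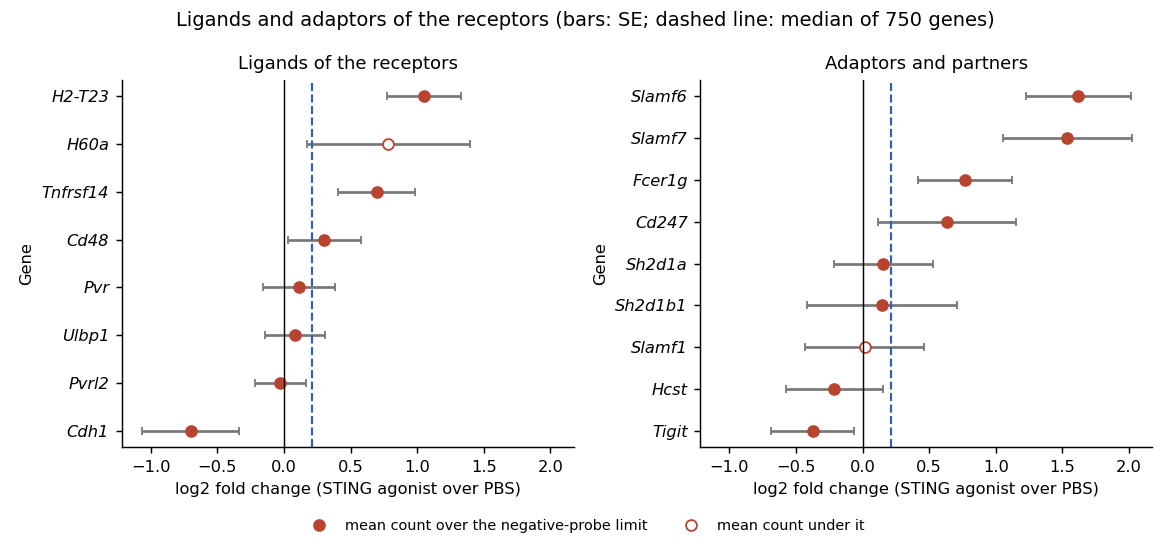
Log2 fold change (STING agonist over PBS) of the 8 listed ligand genes and of the 9 genes for adaptors and partner receptors on the panel. Bars are SE, open points are genes near the negative probes and the dashed line is the median of all 750 genes, 0.21. H2-T23 and Slamf7 lie farthest to the right among genes above the negative-probe limit in every sample.

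Of 9 adaptor and partner genes, 2 passed the unadjusted threshold as higher and 0 as lower, with a median log2 fold change of 0.16. For this list and each list below, the panel background was 17.7% higher and 1.33% lower. Slamf7, a SLAM-family receptor that binds itself on neighbouring cells, measured 62.0, 40.3 and 79.8 in PBS samples and 302.6, 100.6, 82.0 and 225.0 in treated samples. All treated samples were above all PBS samples, though sample 3 by little (log2 fold change 1.54, SE 0.49, edgeR adjusted p = 0.185). Slamf6, another member of that family, had a log2 fold change of 1.62 (SE 0.40, edgeR adjusted p = 0.171) without overlap of the groups, from a mean of 9 raw counts. All 4 PBS samples, with 1 to 8 raw counts, lay at or under their own negative-probe limit, so the size of this difference is not exact. The signalling adaptors gave mixed values. Fcer1g, the Fc receptor gamma chain with which NKp46 and NK1.1 signal and which myeloid cells also express, had 0.77 (SE 0.35, edgeR adjusted p = 0.274). Hcst, which encodes DAP10, the adaptor of NKG2D, had -0.21 (SE 0.36), with 21.6, 22.5 and 22.7 normalized counts in PBS samples and 23.7, 11.2, 15.6 and 26.0 in treated samples. Klrk1 and Hcst thus had log2 fold changes of opposite sign, and that difference was not tested. Cd247, the zeta chain, had 0.63 (SE 0.52), and Tigit, an inhibitory receptor that shares CD155 with CD96, had -0.38 (SE 0.31). Sh2d1a and Sh2d1b1, adaptors of SLAM receptors, had 0.16 (SE 0.37) and 0.15 (SE 0.56), and Slamf1 was near the negative probes.

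The Ly49 receptors, a lectin-like family that binds MHC class I in the mouse, were on the panel with 12 genes, 6 of them near the negative probes. Of these 12, 1 passed as higher and 0 as lower, with a median log2 fold change of 0.026. The gene was Klra2, which encodes Ly49B, a member found on myeloid cells. It measured 104.4, 28.4 and 93.0 in PBS samples and 223.1, 130.4, 122.5 and 286.0 in treated samples, without overlap (log2 fold change 1.33, SE 0.47, edgeR adjusted p = 0.207). Klra4, which encodes the activating Ly49D, had 0.17 (SE 0.26), and Klra7, which encodes Ly49G, had -0.42 (SE 0.36). Ly49 genes are close paralogs, so each of these counts may include others of the family.

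Cytokines and cytokine receptors of natural killer cells numbered 13 on the panel, of which 2 passed as higher and 0 as lower, with a median log2 fold change of 0.38. Il12rb1, a chain of the IL-12 receptor, had 0.88 (SE 0.36, edgeR adjusted p = 0.231) without overlap, and the second gene that passed was its partner Il12rb2, from 5.43 raw counts on average. Il21r had 1.07 (SE 0.49, edgeR adjusted p = 0.265) with 3 of 4 treated samples above all PBS samples, and Il2rg, the common gamma chain, 0.47 (SE 0.29). Of 9 cytotoxic genes and T-box factors, 0 passed in either direction, with a median of 0.26. Prf1, which encodes perforin, measured 232.2, 229.8 and 235.7 in the PBS samples and 155.5, 106.8, 245.1 and 209.8 in treated samples. The PBS values were close together and 3 of 4 treated samples lay below them (log2 fold change -0.37, SE 0.27, edgeR adjusted p = 0.475). Gzmb, which encodes granzyme B, had 0.31 (SE 0.25), Gzma 0.26 (SE 0.38), and Eomes, a T-box factor of natural killer and memory CD8+ T cells, -0.15 (SE 0.27).

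Markers of further cell types were counted in the same fit. Of 6 macrophage genes, 1 passed as higher, Emr1 (F4/80, log2 fold change 1.29, SE 0.43), and 1 as lower, Cd163 (-1.32, SE 0.46), and Csf1r had 0.96 (SE 0.48). Of 3 dendritic cell genes 1 passed as higher, and of 5 B cell genes and 4 mast cell and basophil genes 0 passed in either direction. Among 4 epithelial genes 0 passed, and among 9 hepatocyte genes 2 passed as higher, Ambp and F12, both with their highest value in STING agonist 4.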

How the data were processed

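Whole-tumor RNA of 8 samples was hybridized to the nCounter PanCancer Immune mouse panel (784 probes: 750 immune genes, 20 housekeeping, 8 negative and 6 positive probes). The authors deposited raw counts per probe, which were rounded to whole numbers before use. The lowest count of an immune gene was 1 in every sample. They normalized to housekeeping genes for their own analysis. PBS 2 and 4 were averaged and rounded, giving 7 samples. Each sample's library size was set by the geometric mean of its housekeeping counts. All 750 genes were fitted with edgeR 4.0.16 (quasi-likelihood, no filter, no covariate) in R 4.3.3, with Benjamini-Hochberg adjustment over all genes. DESeq2 1.42.0 and limma 3.58.1 were alternatives, beside other scales, filters and left-out samples. All 10 receptor genes, the ligands and the adaptors were named or counted. From other lists, at most 3 genes with a mean of at least 20 counts and the largest log2 fold change were named, and others were chosen after their values were seen. All 10 probes matched RefSeq by transcript (Cd244 as Cd244a). The receptor genes and lists were chosen with earlier results of these data known. The paper states that these data were pooled from 2 experiments. Positions on the nCounter cartridge and the experiment each tumor came from were not used here, so a difference between experiments was not modelled. The labels do not say whether samples came from separate mice, so p-values measure the spread between samples.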

Additional observations from a re-analysis of the deposited data

How the results depend on the processing

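Apart from the Ptprc and CD3 scales, Klrc1, Klrk1, Klrd1 and Cd160 were higher and Klrg1 and Cd96 lower under each alternative. Klrc1 ranged from 0.75 to 1.31 over 22 alternatives (edgeR, DESeq2 or limma adjusted p from 0.0613 to 0.433), and Klrk1 from 0.84 to 1.41 (0.0622 to 0.433). With an adjusted p under 0.05, 0 receptor genes were found under each of these alternatives, though DESeq2's Wald test gave 4 of the 10 no adjusted p. The genes near 0 changed sign. Klrb1c was -0.22 with TMM, -0.24 with DESeq2 size factors, -0.21 with the total count and -0.20 with PBS 2 and 4 left out. Klrc2 was -0.053, -0.071 and -0.038 under those 3 scales, and Ncr1 -0.12, -0.14 and -0.11. Each scale lowered the median of all genes. Cd244 was 0.060 with all 8 tumors separate.

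Leaving out single samples gave ranges of -0.20 to 0.51 for Klrb1c, -0.046 to 0.40 for Klrc2, -0.041 to 0.22 for Ncr1 and -0.17 to 0.13 for Cd244. The receptor genes with an unadjusted p under 0.05 numbered 0 to 3 then, 0 with PBS 2 and 4 left out and 1 with the study's per-gene test. Panel genes with an unadjusted p under 0.05 numbered 84 to 160, 107 and 110 in these settings, against 143. Receptor genes without overlap numbered 1 to 2 then, beside 131 to 253 panel genes, and 0 beside 104 with the total count as the scale, against 1 and 137. Their median log2 fold change was 0.05 to 0.31 with a sample left out, -0.11 with DESeq2 size factors, and 0.57 over the 5 of them whose mean count reached 20. Relative to Ptprc that median was -1.43 to -0.90 with a sample left out, and relative to the CD3 chains -1.10 to -0.64, and -0.18 with Cd3d alone and -1.35 with Cd3g alone. Other causes were not tested.

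The labels number the samples 1 to 4 in both groups. Deviations of same-numbered samples correlated at -0.060, -0.081, -0.284 and -0.128, which gave no sign of pairing by number. Whether equal numbers share an experiment was not tested. With a replicate block and all 8 tumors separate, 3 receptor genes and 172 panel genes had an unadjusted p under 0.05, and Cd244 was 0.043. Low counts limit Cd96, Klrc2, Klrb1c and Cd160.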
